A study of Zea mays with 10 samples.

Results

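Ethylene and salicylic acid pathway genes were followed by bulk RNA-seq in differentiating endosperm of the maize inbred line B73. The members were every gene that the study's list of phytohormone genes places under ethylene biosynthesis, ethylene response or salicylic acid biosynthesis, taken by B73 gene identifier. They came to 49 of 45953 genes, of which 41 belong to ethylene (31 to biosynthesis and 10 to response) and 8 to salicylic acid biosynthesis. The list held no salicylic acid response category, and 1 further ethylene biosynthesis identifier was not analysed here.

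All libraries came from wild type B73 kernels, and no mutant, hormone or other agent was applied apart from wall digestion. Endosperm at 7 days after pollination (DAP) and at 6 DAP was sequenced in 3 replicate libraries each, and each extraction pooled 20 endosperms. A separate set had 1 library each of protoplasts and of undigested endosperm at both stages. Protoplasts are cells freed from their walls by cellulase and other wall-degrading enzymes in the study, and each of these libraries stands alone for its stage and treatment. By the study's methods the replicates of the bulk libraries came from separate ears.

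Ethylene is made from methionine. S-adenosylmethionine synthase activates the amino acid, ACC synthase (ACS) turns the product into 1-aminocyclopropane-1-carboxylate, and ACC oxidase releases the gas. Signalling ends in EIN3-like (EIL) transcription factors, which switch on genes of the AP2/ERF family, named EREB in maize. Salicylic acid, a phenolic defence hormone, is made in plants from chorismate by isochorismate synthase (ICS) or from phenylalanine by a route that starts with phenylalanine ammonia-lyase (PAL), and NPR1 is its receptor and co-activator in Arabidopsis. Ethylene is also known in cereal endosperm for its part in programmed cell death during grain filling, and both hormones are known for rising upon wounding or attack.

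The replicated libraries held between 15911047 and 24311056 counts on genes, and the protoplast and undigested libraries between 22234742 and 30203337. Values below are CPM, counts scaled to a common library size, after TMM normalisation, which allows for unequal library composition. CPM was not divided by gene length, so levels are compared between samples and not between genes. Marker genes of endosperm cell types differed between the groups and are given here for all results below. Summed markers of the embryo surrounding region (4 genes) lay between 1740 and 1768 CPM at 7 DAP and between 342 and 353 CPM at 6 DAP, and all 4 rose. Starchy endosperm markers (5 genes) summed to between 6633 and 6776 CPM at 7 DAP and between 4640 and 4807 CPM at 6 DAP, with 4 higher and 1 lower, and the 3 markers of the endosperm adjacent to the scutellum, at 90.6 to 91.8 CPM against 32.6 to 33.9 CPM, all rose. The 3 aleurone markers rose, to between 9191 and 9415 CPM against between 5711 and 5923 CPM at 6 DAP. The 3 markers of the basal transfer layer fell, with sums between 163 and 171 CPM at 7 DAP and between 486 and 531 CPM at 6 DAP. The 4 embryo oil body and globulin genes rose, to between 543 and 570 CPM against between 65.2 and 71.9 CPM. None of these markers was at 0 in either set of libraries. In bulk tissue fewer cells of a type and less RNA per cell cannot be told apart, and the part of these marker differences in the results below was not tested.

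Expression of ethylene biosynthesis genes was compared between 7 DAP and 6 DAP to see whether the pathway moved as the endosperm differentiated. Of its 31 members, 8 were at 0 counts in all 10 libraries and 10 in the 6 replicated ones. The test could be made for 16 members, and the untested ones reached at most 4 counts in a replicated library. At an adjusted p under 0.05 in edgeR's quasi-likelihood test, 4 members rose and 5 fell. Over all 21486 genes tested, 56.3% were called, 28.2% as higher and 28.0% as lower. For 9 of the 16 members, and for 61.8% of all genes tested, every library of 1 stage lay above every library of the other. The median log2 fold change was 0.09 for the 16 members and 0.02 for all genes tested. Scaled by library totals alone, which moves the median of all genes by 0.12, the split was 8 higher and 4 lower.

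ACS7 and ACS2, the members with an ACC synthase symbol, changed in opposite directions. ACS7 (Zm00001d026060) had 25.7, 25.2 and 26.3 CPM at 7 DAP, against 18.7, 17.3 and 19.3 CPM at 6 DAP. Every 7 DAP library lay above every 6 DAP library, with a log2 fold change of 0.48 ± 0.07 (SE) and an edgeR adjusted p of 7.77e-06. ACS2 (Zm00001d002592) had 17.0, 20.2 and 20.5 CPM at 7 DAP, against 22.5, 23.7 and 25.9 CPM at 6 DAP. The stages again did not overlap, and ACS2 fell by 0.31 ± 0.08 on the log2 scale (adjusted p = 0.00272, edgeR). With 3 libraries against 3, an exact permutation test (two-sided) on 1 gene cannot go below 0.1, and both genes were at that limit.

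SAMS1 (Zm00001d010920), which encodes S-adenosylmethionine synthase, had the most counts of the list, a number that also grows with gene length, and differed little. Its libraries had 676, 680 and 674 CPM at 7 DAP and 651, 654 and 642 CPM at 6 DAP. The log2 fold change was 0.06 ± 0.02 (adjusted p = 0.0112, edgeR), the smallest increase that passed in this list. The member Zm00001d024754 had 583, 597 and 597 CPM at 7 DAP and 615, 624 and 618 CPM at 6 DAP. It fell by 0.06 ± 0.02 on the log2 scale (adjusted p = 0.0145, edgeR), but was higher by 0.05 when libraries were scaled by their totals. That small decrease also had an adjusted p of 0.0547 without 7 DAP replicate 1 and of 0.0609 with at least 10 counts required in every library.

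Larger changes were found in members that are known here by identifier only. Zm00001d040697 had 277, 278 and 265 CPM at 7 DAP, against 173, 168 and 176 CPM at 6 DAP. At a log2 fold change of 0.66 ± 0.03 (adjusted p = 6.48e-14, edgeR) it had the largest increase among the members of the list that passed. Zm00001d009146 had 61.1, 67.9 and 66.9 CPM at 7 DAP and 51.1, 51.1 and 50.1 CPM at 6 DAP, a log2 fold change of 0.37 ± 0.05 (adjusted p = 1.33e-06, edgeR). For both genes all 3 libraries of 7 DAP were above those of 6 DAP.

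Of the 3 members that fell most, the last 2 given here had few counts. Zm00001d048562 had 9.30, 6.91 and 7.41 CPM at 7 DAP and 12.9, 11.3 and 12.1 CPM at 6 DAP, and fell by 0.64 ± 0.12 on the log2 scale (adjusted p = 9.15e-05, edgeR). Zm00001d011208 had 1.09, 1.43 and 2.08 CPM at 7 DAP, against 4.05, 4.41 and 4.04 CPM at 6 DAP, and fell by 1.41 ± 0.22 (adjusted p = 1.46e-05). Zm00001d039487 had 0.423, 0.524 and 0.339 CPM at 7 DAP, against 1.58, 1.47 and 0.832 CPM at 6 DAP. These are 7, 11 and 7 counts against 37, 23 and 14 counts, and the gene fell by 1.60 ± 0.38 (adjusted p = 0.00115). It entered the test through its 6 DAP counts. The stages did not overlap for any of these 3 genes, and the last 2 were the only members of the list past a log2 fold change of 1, a limit that 9.59% of all genes tested passed together with the adjusted p.

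The other 7 tested members did not pass. The member with the most counts was Zm00001d045479, with 76.4, 72.5 and 70.3 CPM at 7 DAP and 72.7, 70.4 and 72.6 CPM at 6 DAP, and its stages overlapped. Its log2 fold change was 0.02 ± 0.04 (adjusted p = 0.702, edgeR), and 0.14 (adjusted p = 0.00836) when scaled by library totals. Fold changes of the 7 lay between 0.00 and 0.62 on the log2 scale, and the high end was Zm00001d024853 with 9, 22 and 11 counts at 7 DAP and 11, 4 and 11 counts at 6 DAP.

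**Figure D1:**
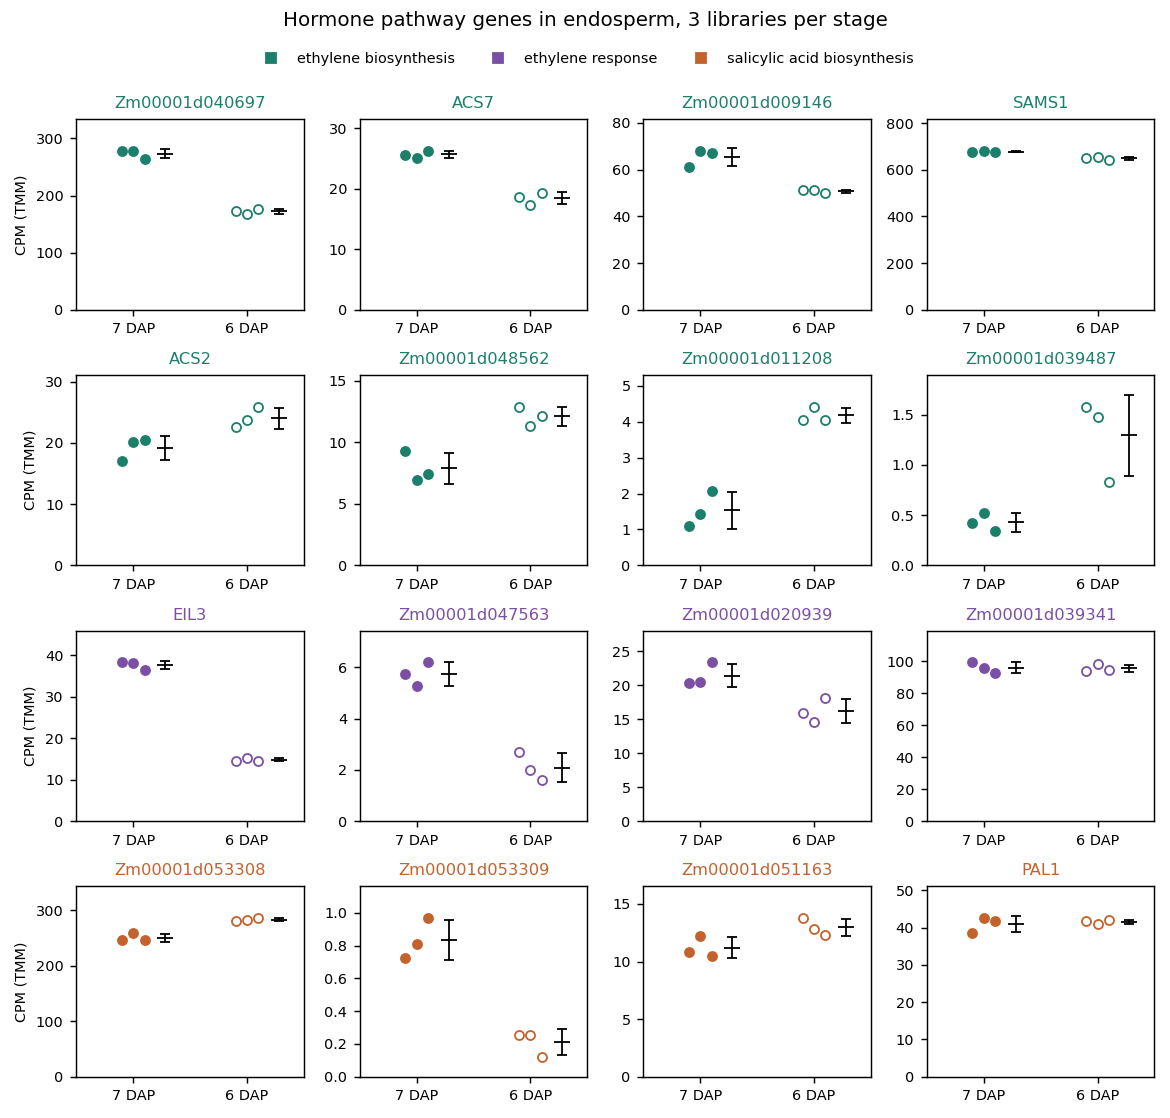
Normalised expression (CPM after TMM, linear axes from 0) of 16 ethylene and salicylic acid pathway genes in endosperm libraries of 7 DAP (filled points, left) and 6 DAP (open points, right); each point is 1 of 3 libraries, and the bar beside them is the mean with its SD. EIL3 lies between 36.5 and 38.3 CPM at 7 DAP and between 14.6 and 15.2 CPM at 6 DAP, whereas the stages overlap for PAL1 and Zm00001d039341.

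In the ethylene response list the members that passed all rose, but few members could be tested. Of its 10 members 5 could be tested, and 3 of these rose, 0 fell and 2 did not pass. The 5 untested members had at most 5 counts in a replicated library. Over all genes tested 56.3% were called, 28.2% as higher and 28.0% as lower. The 3 members called among 5 tested lay near that share for either direction. The median of the 5 tested members was a log2 fold change of 0.40, beside 0.02 for all genes tested.

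EIL3 (Zm00001d028974), an EIN3-like transcription factor of the ethylene signal, had 38.3, 38.0 and 36.5 CPM at 7 DAP, against 14.6, 15.2 and 14.6 CPM at 6 DAP. Its mean of 37.6 ± 0.95 CPM at 7 DAP was 2.54 times that of 14.8 ± 0.38 CPM at 6 DAP (SD, n = 3 each). The log2 fold change was 1.35 ± 0.07 with an edgeR adjusted p of 3.47e-13. Leaving out each replicate in turn gave values between 1.33 and 1.37.

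Zm00001d047563 had the largest fold change of the list at lower levels, with 5.74, 5.29 and 6.20 CPM at 7 DAP and 2.69, 1.98 and 1.60 CPM at 6 DAP. The stages were well apart, at a log2 fold change of 1.42 ± 0.19 (adjusted p = 1.65e-06, edgeR). Zm00001d020939 had 20.4, 20.4 and 23.4 CPM at 7 DAP and 15.9, 14.6 and 18.1 CPM at 6 DAP, a log2 fold change of 0.40 ± 0.09 (adjusted p = 5.39e-04). The stages did not overlap for this gene either. Neither EIL3 nor any other ethylene member passed the study's own limit of a log2 fold change over 2, which 2.54% of all genes tested passed as higher and 0.451% as lower.

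The remaining 2 tested response members did not pass. Zm00001d039341 had 99.3, 95.9 and 92.9 CPM at 7 DAP and 93.8, 98.0 and 94.8 CPM at 6 DAP, and its log2 fold change was 0.01 ± 0.04 (adjusted p = 0.885, edgeR). Scaled by library totals it was 0.12 (adjusted p = 0.00871). Zm00001d031445 had 37.0, 37.8 and 39.1 CPM at 7 DAP and 38.5, 37.8 and 37.7 CPM at 6 DAP. The libraries of the stages interleaved for both genes.

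The undigested libraries of the other set gave a further look at the stages, with 1 library each and therefore no test. Differences of single libraries are on the log2(CPM + 1) scale, scaled by library totals, where changes at low counts come out too small. EIL3 had 42.3 CPM at 7 DAP and 16.7 CPM at 6 DAP in undigested endosperm, a difference of 1.37, against 92.2 CPM and 83.6 CPM in protoplasts, a difference of 0.12. For Zm00001d047563 the difference was 1.48 in undigested endosperm and 0.61 in protoplasts, and for Zm00001d020939 it was 0.51 and 0.26. A difference over 1 upward was seen in 2 of the 10 response members in undigested endosperm and in 0 in protoplasts, where 2.12% and 1.26% of all genes passed it. All 3 response members that rose were higher at 7 DAP in both kinds of library. Of the 9 biosynthesis members called between the stages, 8 kept their direction in undigested endosperm and 4 in protoplasts, where 94.1% and 71.5% of all 12092 genes called did so. The exception in undigested endosperm was Zm00001d024754, and those in protoplasts were SAMS1, ACS2, Zm00001d040697, Zm00001d009146 and Zm00001d039487. The exception in undigested endosperm rests on the scaling, since Zm00001d024754 differed by only 0.0047 on library totals. After TMM, on which the calls were made, it had 696 CPM at 7 DAP and 732 CPM at 6 DAP, lower as called.

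**Figure D2:**
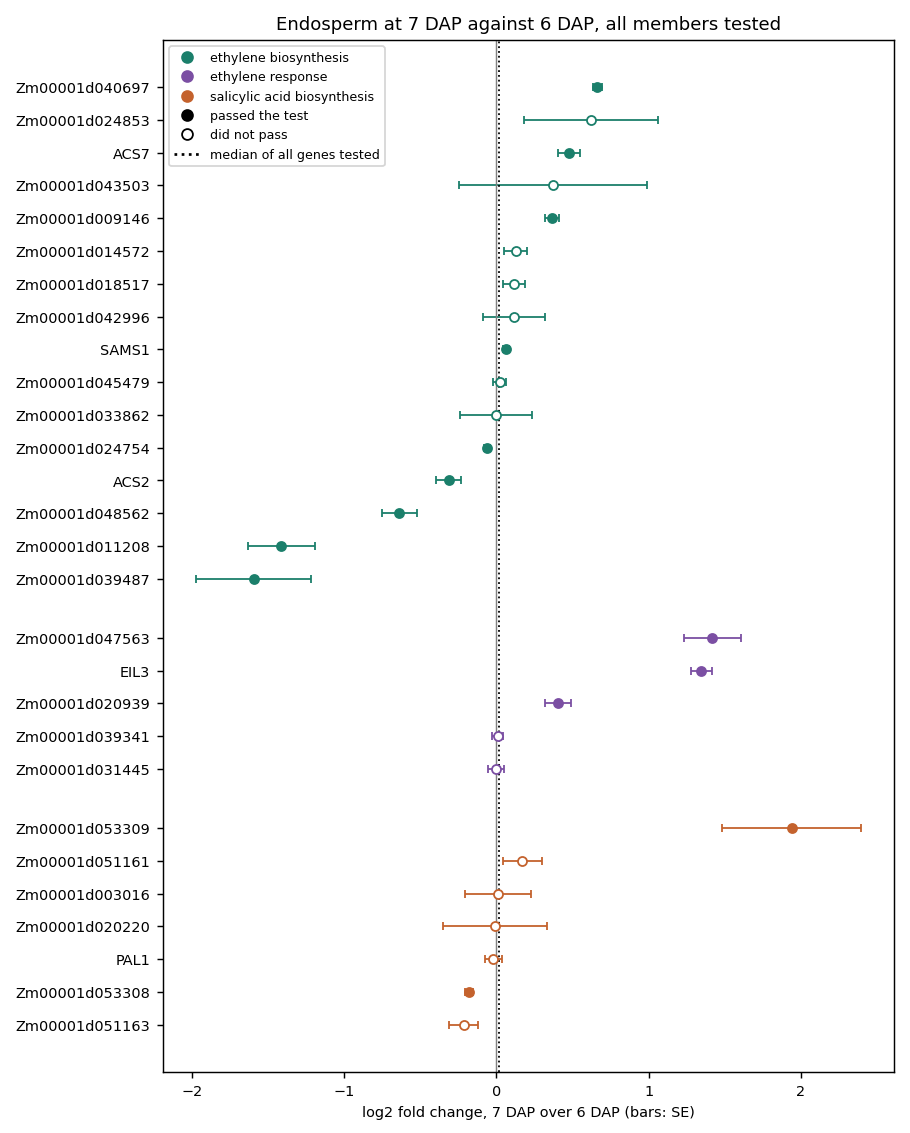
Log2 fold change between 7 and 6 DAP endosperm for the 28 pathway genes that could be tested, grouped by list (points, with bars for the SE from edgeR); filled points passed an adjusted p under 0.05 and the dotted line is the median of all genes tested. The 3 response genes that passed lie at 0.40 to 1.42, and ethylene biosynthesis runs from −1.60 to 0.66.

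Protoplasts were compared with undigested endosperm to see which members differ once the walls have been digested. The fit had 2 libraries per treatment with stage as a covariate and 1 residual degree of freedom, so the stages serve as replicates of each other. Fits here and below that leave out a library had no stage covariate, so their values do not separate the treatment from the stage. A call required a log2 fold change past 1 as well as an adjusted p under 0.05. Of the 17 tested ethylene biosynthesis genes 7 were higher and 0 lower, and of the 8 tested response genes 6 were higher and 1 lower. Of those higher, Zm00001d052136 in the biosynthesis list and Zm00001d022530, Zm00001d003451 and Zm00001d007188 in the response list had under 10 counts in both undigested libraries. The biosynthesis members Zm00001d039487 and Zm00001d018211 had under 10 counts in 1 undigested library (8 at 7 DAP and 4 at 6 DAP). All of these genes entered the test through their protoplast counts, so the counts and medians of the tested members describe them only. With at least 10 counts required in every library, 4 biosynthesis and 3 response genes were higher and 1 response gene was lower. Of all 22799 genes tested without that requirement, 18.4% were called higher and 7.37% lower. No such share was taken under the requirement or for the fits that leave out a library. The median log2 fold change was 0.69 for the biosynthesis members, 1.80 for the response members and −0.03 for all genes tested. The response median was also 1.80 with the 2 members that had no count in undigested endosperm put at their lower bounds. Both bounds still lay above the middle of the list, so the median could not move and this is no check of it. Without the 7 DAP protoplast library 4 biosynthesis and 1 response gene were called higher, and without the 6 DAP protoplast library 3 response genes were. Cell type markers differed with the treatment too. Of the markers, 4 of 5 for starchy endosperm, 4 of 4 for the embryo surrounding region, 2 of 3 for the endosperm adjacent to the scutellum and 1 of 3 for the transfer layer were called lower in protoplasts. Starchy endosperm markers summed to 1959 CPM at 6 DAP and 1722 CPM at 7 DAP in protoplasts, against 5065 CPM and 7022 CPM in undigested endosperm. The 3 aleurone markers summed to 4520 CPM and 6138 CPM in protoplasts, against 5383 CPM and 9041 CPM, and none of them was called, and neither were the embryo genes. The part of cell type markers, of the digestion itself and of the time it took was not tested.

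ACS2 and ACS7, the members with an ACC synthase symbol, were far higher in protoplasts. ACS2 had 142 CPM at 6 DAP and 161 CPM at 7 DAP in protoplasts, against 22.0 CPM and 17.5 CPM in undigested endosperm. Its log2 fold change was 2.95 ± 0.18 (adjusted p = 8.30e-04, edgeR). ACS7 had 74.1 CPM and 117 CPM in protoplasts, against 20.6 CPM and 29.6 CPM in undigested endosperm, a log2 fold change of 1.91 ± 0.14 (adjusted p = 0.00113). The single-library differences were 2.52 at 6 DAP and 2.92 at 7 DAP for ACS2, and 1.68 and 1.74 for ACS7. A difference over 1 upward was seen in 7 of the 31 biosynthesis members at 6 DAP and in 7 at 7 DAP, beside 7.26% and 7.59% of all genes. At both stages 6 members passed it, for which no share of all genes was taken.

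SAMS1 stood apart from ACS2 and ACS7. It had 828 CPM at 6 DAP and 809 CPM at 7 DAP in protoplasts, against 671 CPM and 696 CPM in undigested endosperm, and did not pass at a log2 fold change of 0.26 ± 0.13 (adjusted p = 0.176, edgeR). Zm00001d024754, with 843 CPM and 763 CPM in protoplasts against 732 CPM and 696 CPM, did not pass either (log2 fold change 0.17 ± 0.13). Thus neither of the 2 members with the most counts was called.

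Several members at low level in endosperm had higher counts in protoplasts. Zm00001d011208 had 37.5 CPM at 6 DAP and 33.0 CPM at 7 DAP in protoplasts, against 4.82 CPM and 1.70 CPM in undigested endosperm, a log2 fold change of 3.56 ± 0.36 (adjusted p = 0.00264, edgeR). Zm00001d039487 had 5.68 CPM and 7.42 CPM in protoplasts, against 0.880 CPM and 0.331 CPM (log2 fold change 3.47 ± 0.53, adjusted p = 0.00824). Zm00001d052136 had 34 and 97 counts in protoplasts, against 1 and 6 counts in undigested endosperm, and had the largest fold change of the list at 4.08 ± 0.61 (adjusted p = 0.00774). The undigested libraries of 6 and 7 DAP weighed on these sizes. Without the 6 DAP undigested library the log2 fold changes of the 3 genes were 4.37, 4.29 and 3.25, and without the 7 DAP undigested library 2.86, 2.88 and 5.67. Without the 7 DAP protoplast library Zm00001d052136 had a value of 3.18 and an adjusted p of 0.151. These fits on 3 libraries had no stage covariate, and the lone library was assumed to vary like the others.

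The 2 further biosynthesis members called higher were Zm00001d018211 (log2 fold change 3.39 ± 0.56, adjusted p = 0.0106, edgeR) and Zm00001d033862 (1.63 ± 0.36, adjusted p = 0.0238). Zm00001d018211 had 93 counts at 6 DAP and 116 at 7 DAP in protoplasts, against 4 and 15 counts in undigested endosperm. In the replicated libraries it had at most 4 counts. Zm00001d040697 had 446 CPM and 378 CPM in protoplasts, against 172 CPM and 280 CPM in undigested endosperm, and at 0.90 ± 0.25 (adjusted p = 0.0435, edgeR) it stayed under the limit on the fold change. Without the 7 DAP undigested library the value was 1.25, in a fit that does not separate the treatment from the stage. Zm00001d045479 was the furthest in the other direction, with 42.1 CPM and 47.9 CPM in protoplasts against 75.1 CPM and 69.0 CPM, and was under the limit at −0.68 ± 0.15 (adjusted p = 0.0225). Zm00001d009146 and Zm00001d048562, which were called between the stages, did not pass here (0.37 ± 0.20 and −0.05 ± 0.24). The 14 untested members of the list reached at most 26 counts in 1 of the 4 libraries.

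**Figure D3:**
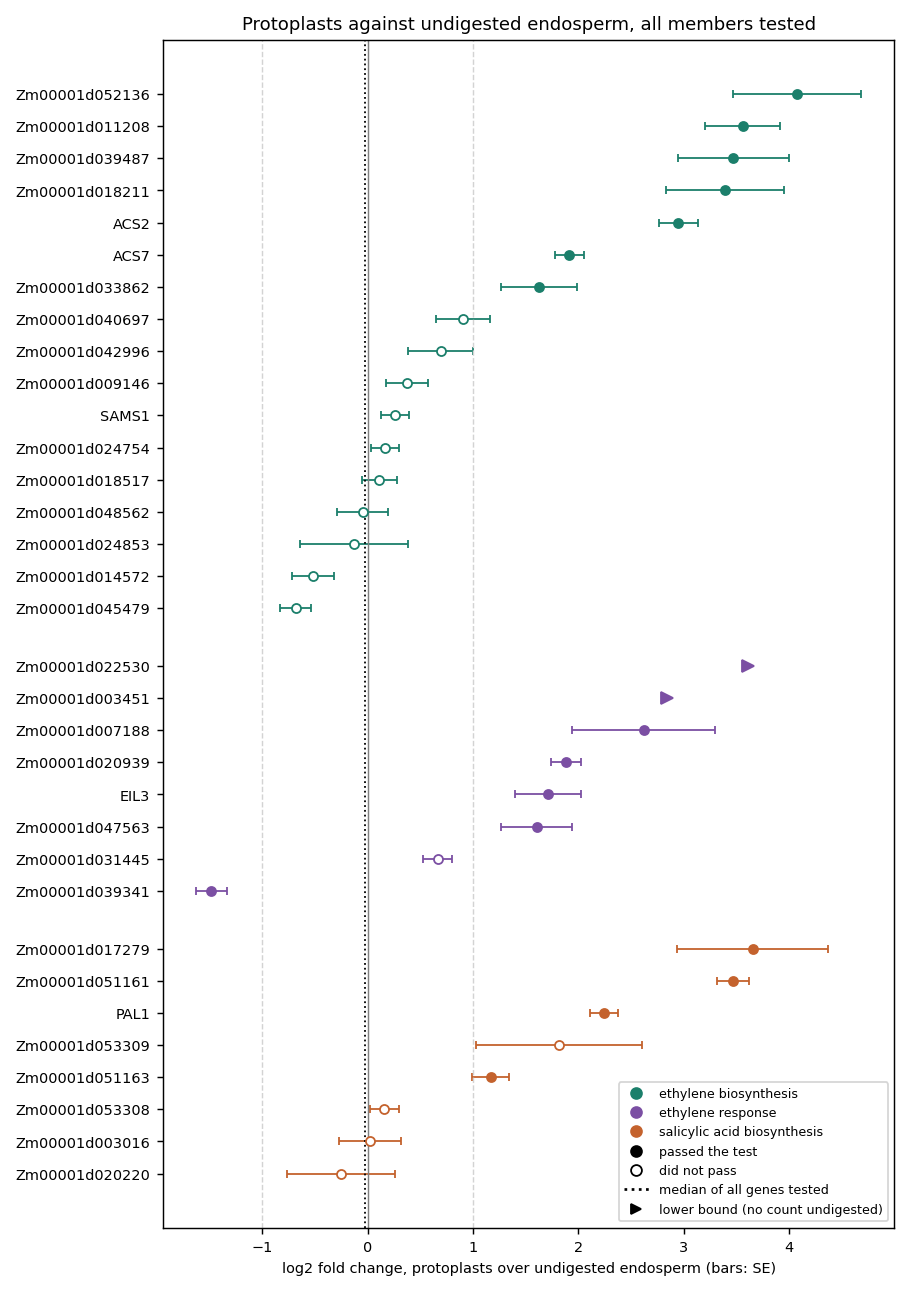
Log2 fold change between protoplasts and undigested endosperm for the 33 pathway genes that could be tested (points, with bars for the SE from edgeR, 2 libraries per treatment); filled symbols passed, triangles are lower bounds for genes with no count in undigested endosperm, the dashed lines mark the fold limit of 1 and the dotted line is the median of all genes tested. Of the 18 genes that passed, 17 lie beyond the right-hand limit, and Zm00001d039341 lies at −1.48.

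Among ethylene response genes EIL3 had 83.6 CPM at 6 DAP and 92.2 CPM at 7 DAP in protoplasts, against 16.7 CPM and 42.3 CPM in undigested endosperm. The treatments did not overlap, and the log2 fold change was 1.71 ± 0.31 (adjusted p = 0.0136, edgeR). The call was lost without the 6 DAP protoplast library (1.68, adjusted p = 0.0809) and without the 7 DAP protoplast library (1.51, adjusted p = 0.128). Without the 6 DAP undigested library the value was 1.06, and without the 7 DAP undigested library 2.39, and neither fit separates the treatment from the stage. Zm00001d020939, with 72.7 CPM and 88.0 CPM in protoplasts against 18.5 CPM and 25.4 CPM, had a log2 fold change of 1.88 ± 0.14 (adjusted p = 0.00126).

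Zm00001d039341 was the member called lower. It had 38.6 CPM at 6 DAP and 35.4 CPM at 7 DAP in protoplasts, against 98.2 CPM and 108 CPM in undigested endosperm. Its undigested levels were close to the 92.9 to 99.3 CPM of the replicated libraries, and it fell by 1.48 ± 0.14 on the log2 scale (adjusted p = 0.00237, edgeR). Zm00001d031445 had 67.4 CPM and 64.4 CPM in protoplasts, against 39.5 CPM and 43.7 CPM, and at 0.66 ± 0.14 (adjusted p = 0.021) it stayed under the limit.

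The other response members had fewer counts. Zm00001d047563 had 9.10 CPM and 14.6 CPM in protoplasts, against 1.97 CPM and 6.86 CPM in undigested endosperm (log2 fold change 1.60 ± 0.34, adjusted p = 0.0208, edgeR). Its call was lost without the 6 DAP protoplast library (1.77, adjusted p = 0.138), the 7 DAP protoplast library (1.05, adjusted p = 0.389) or the 6 DAP undigested library (0.79, adjusted p = 0.138), and the value was 2.58 without the 7 DAP undigested library. Zm00001d007188 had 29 and 20 counts in protoplasts, against 4 and 3 counts in undigested endosperm (log2 fold change 2.62 ± 0.68, adjusted p = 0.0364). Its call was lost without the 6 DAP protoplast (2.26, adjusted p = 0.243), 7 DAP protoplast (2.95, adjusted p = 0.131), 6 DAP undigested (2.86, adjusted p = 0.08) or 7 DAP undigested library (2.43, adjusted p = 0.106), with DESeq2 (2.65, adjusted p = 0.17) and without the filter on low counts (2.63, adjusted p = 0.0553).

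Zm00001d022530 and Zm00001d003451 had no count in either undigested library. In protoplasts Zm00001d022530 had 35 and 47 counts, at least 12.2-fold higher when 3 counts are set as the floor of each undigested library. Zm00001d003451 had 12 and 37 counts in protoplasts, at least 7.14-fold higher on the same floor. Their adjusted p were 0.0126 and 0.0232 in edgeR, and that of Zm00001d022530 was 0.0536 without the 7 DAP protoplast library. In the replicated libraries they had at most 1 and 2 counts, so both were near the limit of detection in undigested tissue throughout. Zm00001d016924, with 3 and 17 counts in protoplasts and none in undigested endosperm, and Zm00001d050861, with 1 count in all 4 libraries together, were not tested.

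Few salicylic acid biosynthesis genes were called between the stages. All 8 members had counts, 7 could be tested, and 1 rose, 1 fell and 5 did not pass (2 fell without 7 DAP replicate 2 or 6 DAP replicate 3), where 28.2% and 28.0% of all genes tested were called higher and lower. The median log2 fold change was −0.01, beside 0.02 for all genes tested. In the single libraries of the other set, 1 of the 2 called members kept its direction in undigested endosperm and 1 in protoplasts. Of all genes called, 94.1% and 71.5% did so. Zm00001d053309 differed by −0.037 in protoplasts. Zm00001d053308 differed by 0.0039 in undigested endosperm on library totals, but after TMM it had 261 CPM at 7 DAP and 274 CPM at 6 DAP, lower as called. Most of the list consists of PAL genes, and several have neighbouring identifiers (Zm00001d017274 and Zm00001d017279, and Zm00001d051161 and Zm00001d051163). The counts leave out reads that map to more than 1 place, and levels of close copies are uncertain for that reason.

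PAL1 (Zm00001d017274), a phenylalanine ammonia-lyase, had 38.4, 42.6 and 41.6 CPM at 7 DAP and 41.8, 40.8 and 42.0 CPM at 6 DAP. The stages overlapped, at a log2 fold change of −0.02 ± 0.05 (adjusted p = 0.767, edgeR), and the value was 0.09 (adjusted p = 0.139) when scaled by library totals. Zm00001d020220, listed as the homolog of Arabidopsis ICS1, had 21, 18 and 17 counts at 7 DAP and 17, 14 and 23 counts at 6 DAP. This is about 1 CPM in every library, and a difference was not detectable at this depth (log2 fold change −0.01 ± 0.34).

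Zm00001d053308, listed as the homolog of rice AIM, had the most counts of the list and fell. AIM1 of rice encodes a β-oxidation enzyme needed for salicylic acid in roots, and the study also lists the gene under jasmonate biosynthesis. Its libraries had 246, 259 and 246 CPM at 7 DAP, against 281, 282 and 286 CPM at 6 DAP. The stages did not overlap, and it fell by 0.18 ± 0.03 on the log2 scale (adjusted p = 1.01e-05, edgeR).

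Among the PAL homologs Zm00001d053309 rose at very low level, with 12, 17 and 20 counts at 7 DAP and 6, 4 and 2 counts at 6 DAP. Its means of 0.835 ± 0.124 CPM at 7 DAP and 0.210 ± 0.079 CPM at 6 DAP (SD, n = 3 each) gave a log2 fold change of 1.94 ± 0.46 (adjusted p = 0.00117, edgeR). The gene had under 10 counts in every 6 DAP library and entered the test through its 7 DAP counts. With at least 10 counts required in every library, 0 members of the list were called higher. Zm00001d051163 had 10.9, 12.2 and 10.5 CPM at 7 DAP and 13.8, 12.9 and 12.3 CPM at 6 DAP. Its stages did not overlap but it missed the threshold at −0.22 ± 0.10 (adjusted p = 0.064), and it passed without 7 DAP replicate 2 (−0.28, adjusted p = 0.041) or without 6 DAP replicate 3 (−0.26, adjusted p = 0.0429).

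The rest of the list did not pass or was too low to test. Zm00001d051161 had 7.67, 8.96 and 8.43 CPM at 7 DAP and 7.00, 8.77 and 6.72 CPM at 6 DAP (log2 fold change 0.17 ± 0.13), and Zm00001d003016 had 2.72, 1.91 and 2.37 CPM at 7 DAP and 2.13, 2.43 and 2.38 CPM at 6 DAP (0.01 ± 0.22). Both overlapped between the stages. Zm00001d017279 had 3, 0 and 2 counts at 7 DAP and 1, 3 and 2 counts at 6 DAP and was not tested.

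The same list was then compared between protoplasts and undigested endosperm. Of the 8 members, 4 were called higher, 0 lower and 4 did not pass, and the 4 called were all PAL genes. Of these Zm00001d017279 had 2 counts in each undigested library and entered the test through its protoplast counts, and with at least 10 counts required in every library 3 members were higher. The median log2 fold change of the list was 1.49, beside −0.03 for all genes tested, and 18.4% of those were called higher. No share of all genes was taken under the stricter filter. Without the 6 DAP protoplast library 2 members were called higher. The 4 that did not pass were the PAL genes Zm00001d003016 and Zm00001d053309 and the 2 members that are not PAL genes. Of the latter, the ICS1 homolog had at most 29 counts in a library, so a difference could hardly have been detected.

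PAL1 had 215 CPM at 6 DAP and 255 CPM at 7 DAP in protoplasts, against 47.0 CPM and 52.1 CPM in undigested endosperm. Its log2 fold change was 2.24 ± 0.13 (adjusted p = 7.48e-04, edgeR), and the single-library differences were 2.05 at 6 DAP and 2.06 at 7 DAP. Zm00001d051161 had 79.8 CPM and 108 CPM in protoplasts, against 7.37 CPM and 9.55 CPM, a log2 fold change of 3.47 ± 0.15 (adjusted p = 4.57e-04). For both genes the gap between the treatments was far larger than that between the libraries of a treatment.

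Zm00001d051163 had 37.8 CPM and 26.0 CPM in protoplasts, against 14.7 CPM and 13.3 CPM in undigested endosperm (log2 fold change 1.17 ± 0.18, adjusted p = 0.00826, edgeR). It lay close to the limit on the fold change, with 1.00 when scaled by library totals, just under it, and 0.92 (adjusted p = 0.0613) without the 6 DAP protoplast library. Zm00001d017279 had 29 and 30 counts in protoplasts, against 2 and 2 counts in undigested endosperm. The ratio was 13.3 with a 95% interval of 4.91 to 50.3 from the exact binomial, which covers counting error only, and the edgeR adjusted p was 0.017. That call was lost without the 6 DAP protoplast library (log2 fold change 3.62, adjusted p = 0.093) or the 7 DAP protoplast library (3.72, adjusted p = 0.0888), beside 3.65 with all 4 libraries.

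Zm00001d053309 had 53 and 58 counts in protoplasts, against 4 and 31 counts in undigested endosperm. It missed the threshold (log2 fold change 1.81 ± 0.79, adjusted p = 0.129, edgeR). Without the 7 DAP undigested library the value was 3.59, in a fit that does not separate the treatment from the stage. The ICS1 homolog Zm00001d020220 had 22 and 22 counts in protoplasts, against 29 and 19 counts, and Zm00001d003016 had 73 and 117 counts, against 70 and 96 counts. Their log2 fold changes were −0.25 ± 0.51 and 0.02 ± 0.30, and both overlapped between treatments. The AIM homolog Zm00001d053308 had 331 CPM and 269 CPM in protoplasts, against 274 CPM and 261 CPM, and did not pass (0.16 ± 0.14, adjusted p = 0.396).

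**Figure D4:**
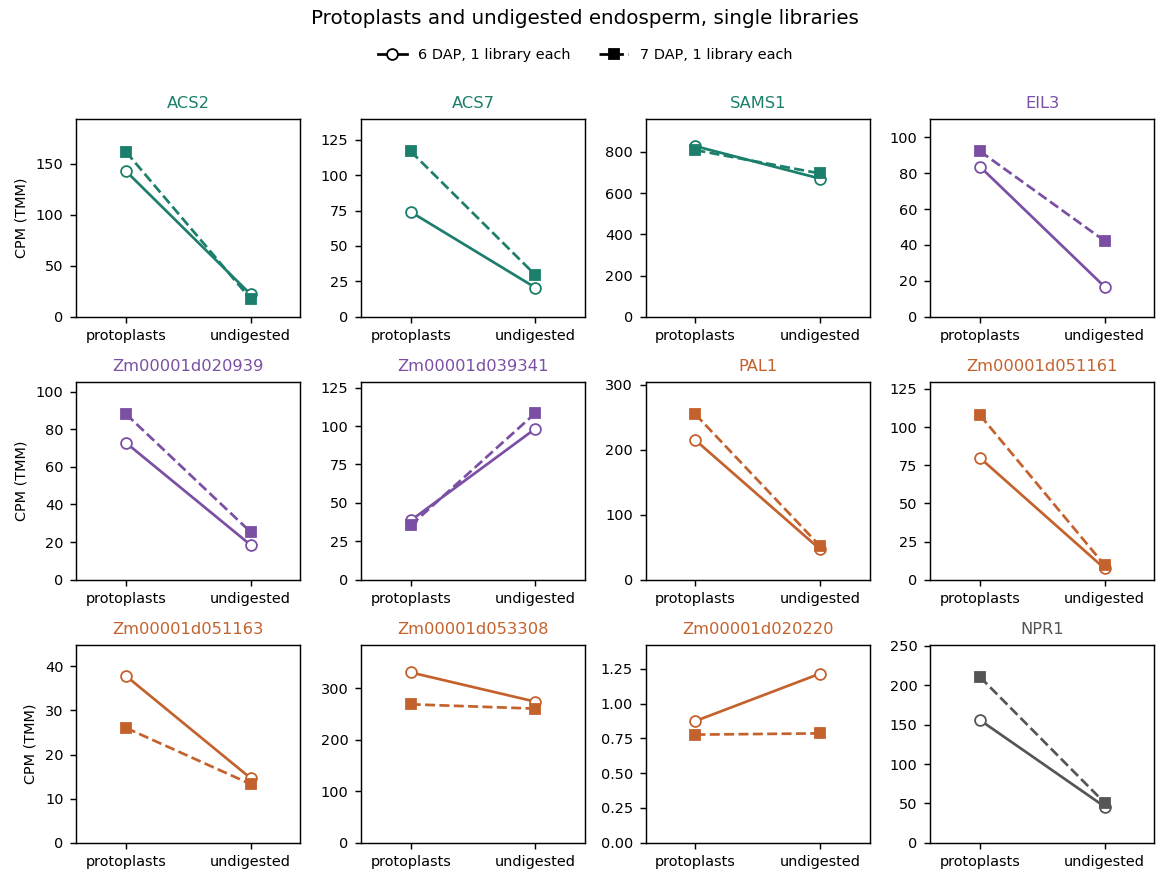
Normalised expression (CPM after TMM, linear axes from 0) of 12 genes in protoplasts (left) and undigested endosperm (right), with 1 library each at 6 DAP (open circles, solid line) and 7 DAP (filled squares, dashed line); green, ethylene biosynthesis; purple, ethylene response; orange, salicylic acid biosynthesis; grey, NPR1. ACS2, PAL1 and Zm00001d051161 lie far higher in protoplasts at both stages, SAMS1 and Zm00001d053308 differ little, and Zm00001d039341 runs the other way.

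A pair of genes outside the list are also tied to salicylic acid. NPR1 (Zm00001d012660), named after the Arabidopsis receptor, had 52.5, 49.8 and 52.5 CPM at 7 DAP, against 45.2, 45.6 and 43.9 CPM at 6 DAP. It rose by a log2 fold change of 0.20 ± 0.05 (adjusted p = 0.00135, edgeR), with no overlap between the stages. In protoplasts it had 156 CPM at 6 DAP and 210 CPM at 7 DAP, against 45.9 CPM and 50.8 CPM in undigested endosperm (log2 fold change 1.91 ± 0.14, adjusted p = 0.00124).

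PAL9 (Zm00001d017275), a further phenylalanine ammonia-lyase next to PAL1 in the numbering, had 51.9, 57.5 and 55.5 CPM at 7 DAP and 51.8, 55.7 and 48.4 CPM at 6 DAP. It did not pass (0.08 ± 0.05, adjusted p = 0.193, edgeR), although scaled by library totals it did (0.20, adjusted p = 0.00414). In protoplasts it had 190 CPM and 177 CPM, against 74.1 CPM and 73.1 CPM in undigested endosperm, a log2 fold change of 1.32 ± 0.13 (adjusted p = 0.00233). It was thus higher after digestion, as PAL1 was.

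EREB and WRKY transcription factors were added as families with members downstream of the hormones. EIN3-like factors switch on genes of the EREB family, and WRKY proteins are known for defence responses that include salicylic acid. Whether each gene counted below responds to either hormone was not tested. The genes were those with such a symbol in the study's tables, many of which were chosen on single-cell data of the same tissue, so their counts are not independent evidence of direction. Of 47 EREB genes 42 were tested between the stages, with 15 higher and 12 lower and a median log2 fold change of 0.18. Of 26 WRKY genes 24 were tested, with 9 higher and 5 lower and a median of 0.09. Over all genes tested 56.3% were called in either direction, 28.2% as higher and 28.0% as lower, and the median was 0.02.

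EREB198 had 17.2, 19.7 and 19.5 CPM at 7 DAP, against 5.72, 5.95 and 5.82 CPM at 6 DAP (log2 fold change 1.70 ± 0.10, adjusted p = 7.08e-12, edgeR), and EREB2 rose by 1.45 ± 0.11. In the other direction EREB45 had 3.38, 3.81 and 3.49 CPM at 7 DAP, against 23.1, 21.6 and 18.5 CPM at 6 DAP. It fell by 2.56 ± 0.12 on the log2 scale (adjusted p = 9.70e-14), past the study's limit of 2, and EREB190 fell by 1.84 ± 0.21. Of the WRKY genes WRKY72 rose by 0.84 ± 0.06, and WRKY123 and WRKY25 fell by 0.97 ± 0.21 and 0.72 ± 0.15. WRKY82, with 16, 16 and 14 counts at 7 DAP and 5, 9 and 6 counts at 6 DAP, had the largest WRKY increase at 1.12 ± 0.43 (adjusted p = 0.0337). It entered the test through its 7 DAP counts. Its call was lost with DESeq2 (adjusted p = 0.157), without the filter on low counts (0.0563), with the replicate number as a block (0.0605) and without 7 DAP replicate 1 (0.112), 7 DAP replicate 2 (0.0691), 6 DAP replicate 1 (0.197) or 6 DAP replicate 3 (0.0696).

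The families were also compared between protoplasts and undigested endosperm. Of 45 EREB genes tested 25 were called higher and 4 lower, with a median log2 fold change of 1.49, and of 26 WRKY genes 20 were called higher and 1 lower, with a median of 2.80. Over all genes tested 18.4% were called higher and 7.37% lower, with a median of −0.03. Some of these genes, such as EREB63, EREB111, WRKY26 and WRKY95, had under 10 counts in both undigested libraries and entered the test through their protoplast counts. With at least 10 counts required in every library 23 EREB and 16 WRKY genes were higher, and no share of all genes was taken under that filter. EREB111 had 69.6 CPM at 6 DAP and 85.3 CPM at 7 DAP in protoplasts, against 9 and 4 counts (0.377 and 0.165 CPM) in undigested endosperm, a log2 fold change of 8.13 ± 0.34 (adjusted p = 4.49e-04, edgeR). It was 8.83 without the 6 DAP undigested library. EREB63 had 277 and 676 counts in protoplasts, against 8 counts and 1 count, and its value of 6.41 was 8.56 without the 6 DAP and 5.67 without the 7 DAP undigested library. The WRKY genes with the largest increase had almost no counts in undigested endosperm.

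WRKY26 had 2469 and 6567 counts in protoplasts, against 0 and 1 count in undigested endosperm. The ratio was 8121 with a 95% exact interval from 1457 to 320804, for counting error only. WRKY95 had 2261 and 2265 counts, against 1 and 4 counts, at a log2 fold change of 9.60 ± 0.36 (8.96 without the 6 DAP and 10.8 without the 7 DAP undigested library). In the replicated libraries WRKY26 had at most 9 counts and WRKY95 at most 16 counts.

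The lower calls were fewer. EREB45 had 55 counts at 6 DAP and 33 counts at 7 DAP in protoplasts, against 477 and 102 counts in undigested endosperm (−2.58 ± 0.40, adjusted p = 0.00903, edgeR). Its call was lost without the 6 DAP protoplast (−3.36, adjusted p = 0.0941), 7 DAP protoplast (−2.46, adjusted p = 0.180) or 6 DAP undigested library (−1.33, adjusted p = 0.0878), and the value was −3.59 without the 7 DAP undigested library. EREB71 had 5.37 CPM and 11.4 CPM in protoplasts, against 55.0 CPM and 36.3 CPM (−2.49 ± 0.43), or −3.08 without the 7 DAP protoplast library. WRKY72, which rose between the stages, had 14.7 CPM and 26.6 CPM in protoplasts against 32.5 CPM and 61.8 CPM in undigested endosperm (−1.18 ± 0.14, adjusted p = 0.00448), and its call was lost without the 6 DAP protoplast (−0.79), 7 DAP protoplast (−1.68) or 7 DAP undigested library (−0.66), with adjusted p of 0.242, 0.0703 and 0.131.

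**Figure D5:**
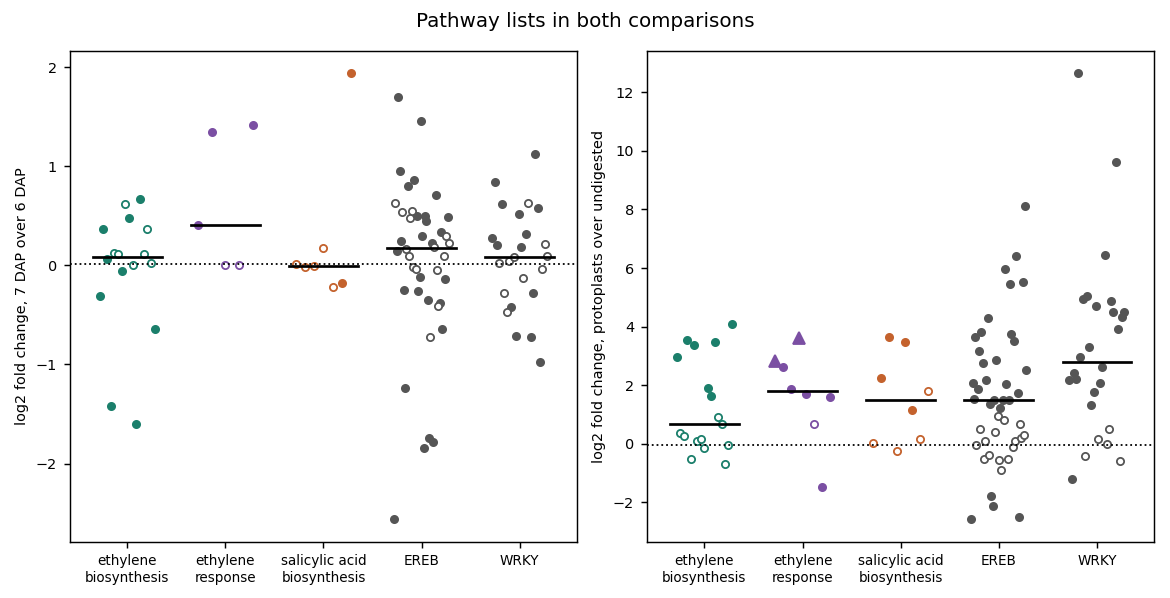
Log2 fold changes of the tested genes of 3 hormone lists and of the EREB and WRKY families, between 7 and 6 DAP endosperm (left) and between protoplasts and undigested endosperm (right); filled points passed, open points did not, triangles are lower bounds, black bars are list medians and the dotted lines are the medians of all genes tested. On the right the medians lie at 0.69 to 2.80, and on the left at −0.01 to 0.40.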

How the data were processed

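The authors trimmed the reads with Trimmomatic 0.39, aligned them with STAR to the B73 v4 genome, counted uniquely mapped reads per gene with featureCounts 2.0.1 and deposited raw counts for 45953 genes in 2 tables. Counting by strand, and how the libraries were divided over sequencing runs, is not given in the sources used here. Members and lists were chosen with earlier results of these data known. Named genes were all salicylic acid members, ethylene members with a symbol, the 4 ethylene members of each list with the highest CPM, the 3 with the largest called change per direction and comparison, NPR1, PAL9, and the 2 largest per direction of the EREB and WRKY lists. Symbols came from the study's supplementary tables, and roles are given only where those tables or a symbol name the gene.

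Counts were tested with edgeR 4.0.16 in R 4.3.3 (TMM, filterByExpr, quasi-likelihood F test, Benjamini-Hochberg adjustment over all genes tested) within each table. The threshold was an adjusted p of 0.05, with a log2 fold change limit of 1 for protoplasts. The SE was derived from the F statistic. The common biological coefficient of variation was 4.14% between the stages and 19.0% for protoplasts. Where a group had 1 library, differences of log2(CPM + 1) were taken, with no test. Alternatives were other size factors, DESeq2 1.42.0, other filters and fold limits, pseudocounts, a replicate block and leaving out each library. Each test was checked on simulated data with the same variation for every gene, in which 200 well-counted genes were changed. Log2 changes of 0.5 and 1 were tried between the stages and of 2 and 3 for protoplasts, and 180 to 200 genes were recovered. Genes with few counts and smaller changes were not covered by this check. All replicates differed by more than sampling noise. Sequences and promoter motifs were not analysed here.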

Additional observations from a re-analysis of the deposited data

Results flagged for a closer look

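In 7 genes the single libraries moved in opposite directions by more than counting error, either at the 2 stages or in the 2 kinds of library. None of these differences was tested, since each group had 1 library, and the values are on the log2(CPM + 1) scale, scaled by library totals.

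Between 7 and 6 DAP, Zm00001d040697 differed by −0.25 in protoplasts and 0.78 in undigested endosperm. ACS2 differed by 0.16 in protoplasts and −0.24 in undigested endosperm, SAMS1 by −0.049 and 0.13, Zm00001d039341 by −0.14 and 0.22, and Zm00001d009146 by −0.38 and 0.34.

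Between protoplasts and undigested endosperm, Zm00001d009146 differed by −0.16 at 7 DAP and 0.56 at 6 DAP, Zm00001d053308 by −0.17 and 0.15, and Zm00001d024754 by −0.082 and 0.081. With TMM scaling these 3 genes were higher in protoplasts at both stages, by 0.05, 0.05 and 0.13 at 7 DAP and by 0.68, 0.27 and 0.20 at 6 DAP.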

How the results depend on the processing

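Between 7 and 6 DAP the counts of pathway genes that passed were within 1.5 times the reported ones with other size factors, DESeq2, no filter and the replicate number as a block. Library totals gave 8 higher ethylene biosynthesis genes. With at least 10 counts in every library, 3 ethylene biosynthesis genes were lower and 0 salicylic acid genes higher, a filter that leaves out low genes. With a log2 limit of 1, ethylene biosynthesis had 0 higher and 2 lower and salicylic acid 0 lower, and with a limit of 2 all 5 counts were 0, for ethylene biosynthesis in both directions, ethylene response higher and salicylic acid in both directions. Without each replicate, 1 to 2 salicylic acid genes were lower (2 without 7 DAP replicate 2 or 6 DAP replicate 3) and 4 to 5 ethylene biosynthesis genes.

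Between protoplasts and undigested endosperm, at least 10 counts in every library left 4 ethylene biosynthesis and 3 ethylene response genes higher. With no limit on the fold change 1 ethylene biosynthesis gene was lower, and with a limit of 2 the response list had 3 higher and 0 lower. Without each library in turn, 4 to 9 ethylene biosynthesis, 1 to 5 ethylene response and 2 to 5 salicylic acid genes were higher, with the lowest counts without the 7 DAP protoplast library for both ethylene lists and without the 6 DAP protoplast library for salicylic acid.

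Between the stages the sign turned with library totals, which shift the median of all genes by 0.12, for Zm00001d020220 (0.10), PAL1 (0.095), Zm00001d024754 (0.054) and Zm00001d031445 (0.11), and with DESeq2 for Zm00001d039341 (−0.00011). At least 10 counts in every library gave 0.0071 for Zm00001d020220 and 0.015 for Zm00001d031445. Leaving out each replicate gave ranges across 0 for Zm00001d020220 (−0.23 to 0.27), Zm00001d003016 (−0.10 to 0.15), PAL1 (−0.046 to 0.020), Zm00001d045479 (−0.011 to 0.054), Zm00001d039341 (−0.016 to 0.037) and Zm00001d031445 (−0.017 to 0.016). Between protoplasts and undigested endosperm, library totals moved the median over all genes by −0.17, with −0.15 for Zm00001d003016, −0.0097 for Zm00001d053308 and −0.00089 for Zm00001d024754. WRKY25 was 0.00058 without the filter and 0.028 with the stricter one. Leaving out each library gave ranges across 0 for Zm00001d020220 (−0.56 to 0.072), Zm00001d003016 (−0.24 to 0.29), Zm00001d048562 (−0.41 to 0.32), EREB190 (−1.65 to 0.83) and WRKY25 (−0.67 to 0.67). Of the values whose sign turned, that of Zm00001d024754 between the stages with library totals passed the test. The causes were not tested.

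Replicate numbers are shared by the stages but were not taken as pairs in the main test. Deviations from the group means correlated at 0.10, 0.02 and −0.004 for equal numbers, and not every library correlated best with its own number. With 3 libraries per stage such correlations cannot exclude a pairing. With the replicate number as a block, 4 ethylene biosynthesis genes were higher and 5 lower, 3 response genes higher, and 1 salicylic acid gene higher and 1 lower, as without it, and WRKY82 no longer passed (adjusted p = 0.0605). With 1 residual degree of freedom and 1 library per stage and treatment, the protoplast calls of genes with few counts are the least certain. The promoter motif search was not run, for want of sequences matched to these identifiers.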
